A study of Mus musculus with 13 samples.

Results

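Whole epidermis of the abdomen at gestation day 16 (dpc16) was described from single cells and set beside the same tissue of non-pregnant (NP) mice. The cells were all barcodes with at least 200 detected genes and at most 10% mitochondrial transcripts: 12853 of 12984 deposited barcodes in the dpc16 library and 6491 of 6635 in the NP library, together 19344 of the 36927 cells kept in the whole series. The study states 12846 and 6485 cells for these libraries. The mice of the single-cell libraries were C57BL/6 and carried Tbx3creERT2 and R26H2B EGFP. These are a recombinase driven from the Tbx3 locus and a nuclear green fluorescent reporter. All these mice received tamoxifen, which switches the recombinase on. The pregnant mice were treated during pregnancy, and the NP mice were treated for 3 days. Libraries of the same genotype from day 6 (dpp6) and day 40 (dpp40) after birth served as further reference points, with 9031 and 8552 kept cells. Bulk libraries of sorted basal cells are set beside the single cells below. They came from wild type mice (NP and dpc16) and Tbx3 knockout mice (dpc16). Each state has 1 single-cell library, and the number of mice behind a library is not given in the sources used here. Differences between the libraries therefore have no replicate check, and every interval given for them covers counting error only.

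The epidermis renews itself from a basal layer, where keratinocytes attached to the basement membrane express the keratins Krt5 and Krt14 and divide. Cells that leave it turn on Krt1 and Krt10 in the spinous layer, then in the granular layer make the proteins and lipids of the cornified barrier, among them loricrin and filaggrin. Hair follicles, sebaceous glands, Langerhans cells and dendritic epidermal T cells share the tissue. In pregnancy the abdominal skin is stretched and exposed to placental lactogens, prolactin, steroids and other hormones, and the study asks how its cells respond.

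The dpc16 library held 74289307 transcripts counted by unique molecular identifiers (UMIs) in kept cells, the NP library 39767733. The median cell held 4448 UMIs and 1455 genes at dpc16 and 4709 UMIs and 1519 genes in NP, with median mitochondrial shares of 3.15% and 2.99%. The 2 libraries shared 113 cell barcodes. Keratinocyte markers were abundant in both, and after each cell was thinned at random to 2000 UMIs, 93.3% of dpc16 cells and 90.5% of NP cells held at least 3 of 10 basal keratinocyte markers. Of the marker lists of cells that should be absent, endothelial, smooth muscle, skeletal muscle, adipocyte, mammary luminal and mast cell markers had no member with a mean of 10 counts per 1e+06 UMIs (CPM), and neither did the melanocyte and Merkel cell lists. Of 8 fibroblast markers only Sparc did (57.1 CPM in NP and 52.9 at dpc16), and the collagen genes Col1a1 (0.629 and 0.0404 CPM) and Col3a1 (0.679 and 0.0135 CPM) were near 0 and lower at dpc16. The 8 mammary luminal markers summed to 0.983 CPM at dpc16, with 5 of them at 0. Globin transcripts were lower at dpc16: the 5 erythroid markers summed to 1490 CPM in NP, 548 at dpc16, 546 at dpp6 and 76.6 at dpp40.

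The single-cell libraries differed at Skint genes in a stretch of chromosome 4. Skint3 (mm10 chromosome 4, 112232245 to 112300468) had 964 UMIs in the NP library and 0 in each of the dpc16, dpp6 and dpp40 libraries. Skint9 (112385969 to 112433985) had 1274 UMIs in NP and 0 in the other libraries, and Skint4 (112072016 to 112168076) had 464 UMIs in NP and 1 at dpc16. Against a floor of 3 counts in the dpc16 library, Skint3 was at least 600-fold and Skint9 at least 793-fold higher in NP. These genes, of a family named for the selection and upkeep of intraepithelial T cells, were picked out after their values were seen. The T cell marker Cd3g stood at 22.2 CPM in NP and 23.1 at dpc16. In bulk RNA of sorted basal cells from wild type mice, Skint3 lay between 3.32 and 7.17 FPKM in the 3 NP libraries and between 3.94 and 5.13 in the 3 dpc16 libraries. Skint4 lay between 4.64 and 10.5 in NP and 5.05 and 6.68 at dpc16, and Skint9 between 2.85 and 6.28 and between 1.30 and 4.41. The near absence of these genes in the single-cell dpc16 library was thus not seen in the bulk dpc16 libraries. What sets the single-cell libraries apart at these genes was not tested.

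At dpc16 a small set of genes was much higher than in NP, led by Tgm3, Stfa3, Socs2, Thy1 and Pyy, and a larger set was lower, among them Lgr5 of the hair follicle, Cidea of the sebaceous gland, Flg of the granular layer and the globin Hba-a2, besides Skint3 and Skint9. Of 7059 genes with a mean of at least 10 CPM, 37 (0.524%) were at least 2-fold higher in the dpc16 library and 98 (1.39%) at least 2-fold lower, together 135 (1.91%). The middle of the distribution barely moved: the median log2 ratio was -0.04, and 44.1% of genes lay above 0. Under trimmed mean of M values (TMM) scaling, which moved that median up by 0.13, the counts were 55 higher and 80 lower, so the share of higher genes among those past 2-fold was 40.7% in place of 27.4%. That scaling adds the same 0.13 to every gene, so list members less than 0.13 below 0, Krt10 among them, lie above 0 under it. Without cells that held markers of follicle, sebaceous gland or granular layer (leaving 7996 dpc16 and 2589 NP cells) the counts were 43 and 63, and the higher share was 40.6%. The dpc16 library was the highest of the 4 libraries for 35 of the 37 higher genes and the lowest for 86 of the 98 lower ones. As the genes were picked by dpc16 against NP, part of this rank is set by the choice. For 25 of the 37 and 39 of the 98, dpc16 was also at least 2-fold outside both dpp6 and dpp40. For 57 of the 98 (58.2%) both dpc16 and dpp6 lay below both NP and dpp40, and so they did for 1170 of all 7059 genes (16.6%). The 98 genes were chosen for a dpc16 value below NP, which is part of that order. Genes above 0 cannot have it, so these shares cannot be compared. Among ribosomal protein genes 24 of 76 had that order, and Rps28, picked after its values were seen, stood at 3124 CPM in NP, 1927 at dpc16, 1884 at dpp6 and 4165 at dpp40. What this grouping of libraries contributes to the lower genes was not tested.

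**Figure D1:**
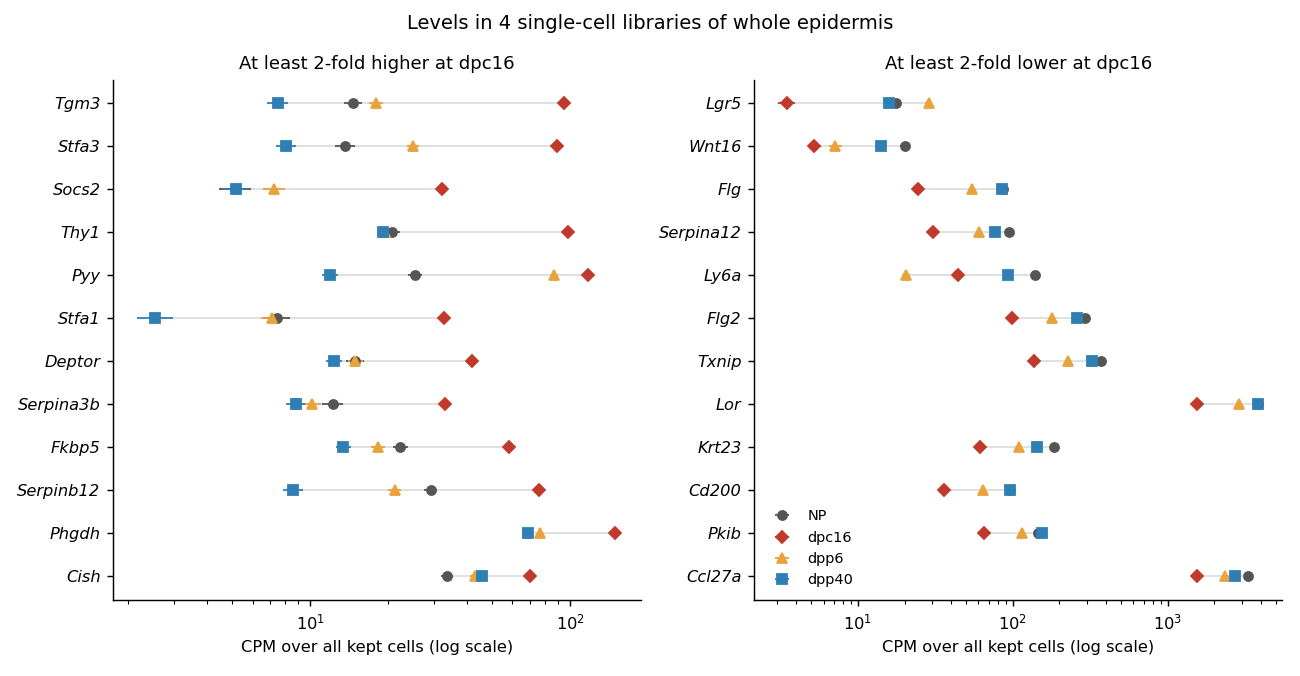
CPM over all kept cells (log axis) of 12 genes at least 2-fold higher and 12 at least 2-fold lower at dpc16, with 1 point per single-cell library and bars for the exact Poisson 95% interval. The dpc16 point is the highest of 4 for each gene on the left; on the right it is the lowest except for Ly6a, which is lower still at dpp6.

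Tgm3 (chromosome 2, 130012349 to 130050399), a transglutaminase that cross-links proteins of the cornified envelope and the hair, stood at 14.6 CPM in NP, 94.4 at dpc16, 17.9 at dpp6 and 7.49 at dpp40. Only the dpc16 library was high, 6.46-fold above NP (counting interval 5.93 to 7.04). Stfa3 (chromosome 16, 36450537 to 36455392), a stefin A inhibitor of cysteine proteases, stood at 13.6, 88.8, 24.9 and 8.05 CPM in the same order. Its relative Stfa1 stood at 7.44, 32.7, 7.14 and 2.54 CPM, and because stefin A genes are near copies of one another, the split of reads between them is uncertain. Thy1 (chromosome 9, 44043384 to 44048579), a surface glycoprotein best known from T cells, stood at 20.6 CPM in NP, 97.9 at dpc16, 19.5 at dpp6 and 19.1 at dpp40.

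Pyy (chromosome 11, 102106676 to 102107832), the gut hormone peptide YY, stood at 25.2 CPM in NP, 117 at dpc16, 87.0 at dpp6 and 11.9 at dpp40. Unlike the genes above, Pyy was still high in the dpp6 library. Akr1c18, an enzyme that inactivates progesterone, stood at 123, 251, 185 and 91.4 CPM, also with an intermediate value at dpp6. Phgdh, the first enzyme of serine synthesis, was high at dpc16 alone, with 68.1, 149, 76.6 and 69.2 CPM. So was Tppp3, a tubulin-binding protein, with 89.1, 242, 81.2 and 85.5 CPM. The noncoding transcript Gm26917, at 31.5 CPM in NP and 129 at dpc16, was also among the 15 largest ratios at a mean of 50 CPM or more.

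Genes that respond to prolactin and growth hormone through the kinase JAK2 and the transcription factor STAT5 divided. Socs2 (chromosome 10, 95385362 to 95417180) and Cish are induced by STAT5 and in turn damp the receptors. Socs2 stood at 5.15 CPM in NP, 32.1 at dpc16, 7.27 at dpp6 and 5.16 at dpp40, a 6.23-fold difference between dpc16 and NP (5.40 to 7.22). Cish stood at 33.6, 69.9, 43.1 and 45.8 CPM. The prolactin receptor Prlr was 1.53-fold higher at dpc16 (53.3 against 81.3 CPM), while Socs3, another feedback inhibitor, was lower, at 76.5 CPM in NP and 50.9 at dpc16. Of 9 listed JAK-STAT5 genes that reached 10 CPM, 6 lay above 0, 2 of them (Socs2 and Cish) at least 2-fold, and none was 2-fold lower. Over all genes 44.1% lay above 0 and 0.524% were at least 2-fold higher. The median of the list was 0.12 on the log2 scale, against -0.04 over all genes.

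The letters around the start of Cish show the motif TTCNNNGAA that STAT5 dimers bind, and the window is printed because Cish is among the few higher genes with that motif. It spans chromosome 9, 107296654 to 107296683 on the plus strand of GRCm38.p6, from the RefSeq promoter table, with each motif in capitals.
Cish: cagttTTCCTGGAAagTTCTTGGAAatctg
The window holds the motif 2 times without overlap, and since the motif reads the same on both strands, 1 search covers both. Of all promoters listed there, 8.30% (2726 of 32851) held TTCNNNGAA, and among promoters of the genes at least 2-fold higher it was 6.45% (2 of 31 promoters, of 24 matched genes). These letters are a description of the sequence, and the motif was no more frequent among the higher genes than in the table as a whole.

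Hormone receptors as a list were not higher. Of 11 receptors at 10 CPM or more, 4 lay above 0 and none passed 2-fold either way, with a median log2 ratio of -0.32. The vitamin D receptor Vdr stood at 73.9 CPM in NP and 39.1 at dpc16, and the thyroid hormone receptor Thra at 59.0 and 37.0. Receptors under the minimum, named after their values were seen, were left out of that median. In CPM in NP and dpc16 they were Pgr (0.126 and 0.808), Esr1 (3.19 and 6.07), Thrb (5.33 and 6.56), Nr3c2 (0.478 and 0.310) and Esr2 (0.277 and 0.269). Among 15 glucocorticoid-inducible genes the values spread in both directions around a median of -0.01. Fkbp5, a chaperone of the glucocorticoid receptor, was 2.63-fold higher, with 22.2 CPM in NP, 58.2 at dpc16, 18.3 at dpp6 and 13.4 at dpp40. The metallothionein Mt1 stood at 1974 CPM in NP, 1020.4 at dpc16, 1044 at dpp6 and 2244 at dpp40, as low at dpp6 as at dpc16. Ddit4, an inhibitor of mTOR signalling, stood at 70.8 CPM in NP and 35.9 at dpc16. Deptor, another mTOR inhibitor, went the other way from Ddit4, with 14.9 CPM in NP and 41.8 at dpc16. Txnip, which restrains glucose uptake and is induced by FOXO factors, was 2.69-fold higher in NP, with 370 CPM in NP, 138 at dpc16, 228 at dpp6 and 322 at dpp40.

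Most granular layer genes were lower at dpc16. Of 15 listed genes, 7 were at least 2-fold lower (1.39% of all genes), and 1 (Tgm3) at least 2-fold higher (0.524% of all genes). The median log2 ratio was -0.81. Hrnr, which encodes hornerin, was nearly the same in both (23.7 CPM in NP and 24.0 at dpc16), and Lce1a1 and Lce1c had log2 ratios of -0.11, smaller in size than the TMM shift. Lor (chromosome 3, 92080271 to 92083142), which encodes loricrin, stood at 3828 CPM in NP, 1547 at dpc16, 2866 at dpp6 and 3832 at dpp40. The filaggrin gene Flg stood at 86.5, 24.6, 54.3 and 84.9 CPM and Flg2 at 292, 98.3, 178 and 261. For these genes dpc16 was lowest and dpp6 lay between it and the NP and dpp40 libraries. Nccrp1, a glycoprotein-binding protein of stratified epithelia, stood at 88.5 CPM in NP and 32.3 at dpc16. Late cornified envelope and SPRR genes were less different as a list, with 6 of 14 above 0, none past 2-fold and a median of -0.11, which was 0.36 without the 5% of cells with the most UMIs. Their most abundant member, Lce1m, stood at 1975 CPM in NP and 1011 at dpc16.

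Most granular transcripts sat in few cells. Cells that drew at least 1% of their UMIs from the 15 granular genes made up 2.79% of NP cells (181 cells), 1.09% of dpc16 cells (140), 1.52% at dpp6 and 2.88% at dpp40. The 1% border was chosen after the values were seen. Inside those cells the list summed to 89007 CPM in NP and 85503 at dpc16, and in all other cells to 770 and 581 CPM. The cells were picked by the same transcripts that are summed in them, so the level inside them is a description only. How dissociation recovers cornifying cells was not tested. In the sums over a library, fewer cells of a type and less RNA per cell cannot be told apart.

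Follicle and sebaceous markers were also lower. Of 9 upper follicle markers 1 lay above 0, with a median log2 ratio of -0.86, and of 8 bulge and outer root sheath markers 1, with a median of -0.71. Lgr5, a stem cell marker of the lower bulge, stood at 17.6 CPM in NP, 3.47 at dpc16, 28.6 at dpp6 and 15.9 at dpp40. Defb6, a beta-defensin, stood at 2217, 1140, 1952 and 2240.3 CPM, and Sostdc1, an inhibitor of Wnt and BMP signals, at 312, 158, 375 and 288. The sebaceous lipid droplet gene Cidea stood at 20.8 CPM in NP and 4.95 at dpc16. Each of these 4 genes was lowest in the dpc16 library.

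The shares of cells changed with these sums. After thinning, cells with at least 3 upper follicle markers made up 48.6% of the NP library and 29.7% of the dpc16 library (exact binomial 95% intervals 47.4% to 49.8% and 28.9% to 30.5%). Bulge and outer root sheath marker cells made up 15.5% and 7.37%, and sebaceous marker cells 2.83% and 1.45%. Without thinning these shares were 80.9% and 58.4%, 31.2% and 17.4%, and 15.5% and 9.44%. A share counts cells that hold the listed transcripts, several of which interfollicular cells also carry, and it is set by how skin was dissociated and by each gene's level as well as by cell number. Langerhans cells were counted by 7 core markers, an unplanned rule in place of the full list. They made up 2.19% in NP and 1.76% at dpc16, and T cell marker cells 0.678% and 0.840%, with overlapping counting intervals for each pair. The T cell markers include Thy1, which was higher at dpc16 also outside T cell marker cells, so it can raise the dpc16 share.

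**Figure D2:**
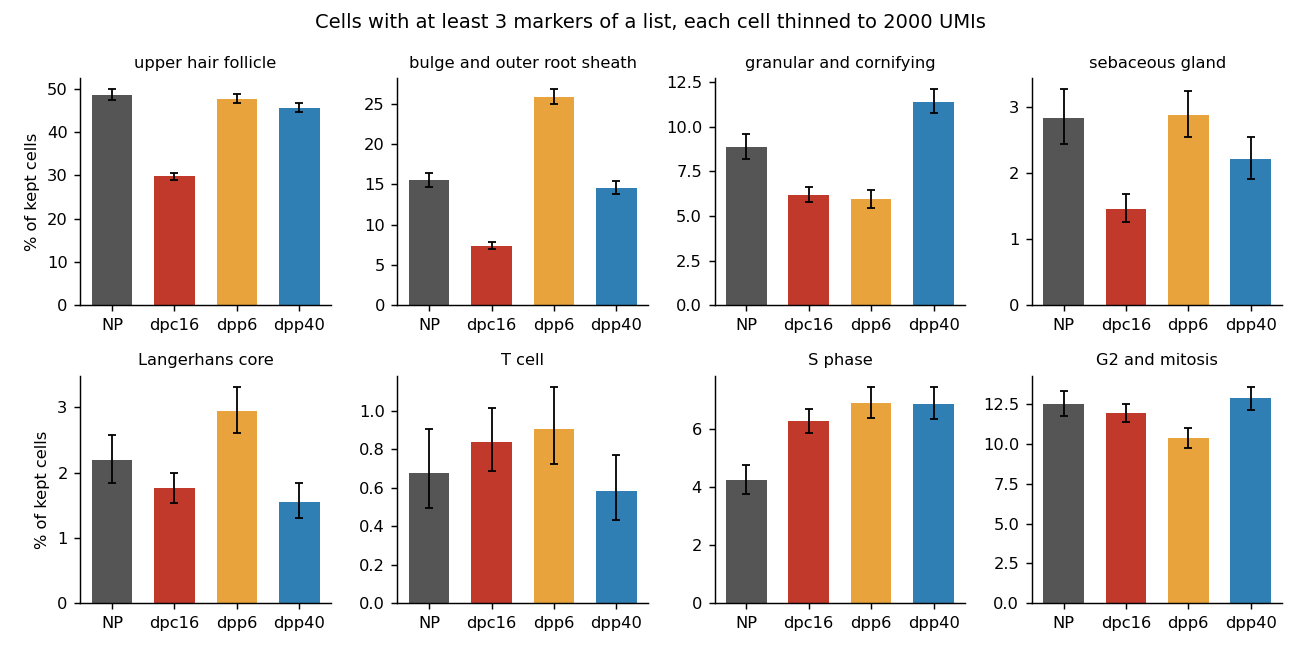
Share of kept cells (percent, axis from 0) with at least 3 markers of each list after thinning to 2000 UMIs, in the 4 single-cell libraries, with exact binomial 95% intervals. Upper follicle, bulge and sebaceous shares are lowest at dpc16, while the T cell bars overlap within their intervals.

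The basal and spinous keratins shifted within the keratinocytes. Krt14 stood at 3212 CPM in NP and 5131 at dpc16, and Krt5 at 2284 and 3249. Of 10 basal markers 9 lay above 0, none past 2-fold, with a median of 0.10. Krt1 stood at 1002 CPM in NP, 1696 at dpc16, 733 at dpp6 and 694 at dpp40, while its partner Krt10 was nearly the same in NP and dpc16, at 5638 and 5573 CPM. Krtdap, a secreted protein of differentiating keratinocytes, stood at 9151 CPM in NP, 4924 at dpc16, 4990.2 at dpp6 and 8221 at dpp40. Of 9 spinous markers only Krt1 lay above 0 on the CPM scale.

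To place the differences in the tissue, keratinocytes were divided by whether UMIs of Krt1 and Krt10 exceeded those of Krt5 and Krt14. This suprabasal range held 23.8% of 5729 NP cells and 20.8% of 11588 dpc16 cells, and 290 and 467 cells lay near the border. The ranges are not cell types, and they rest on keratins that themselves differed between the libraries. Tgm3 stood at 19.1 CPM in NP and 128 at dpc16 in the basal range, and at 8.98 and 40.8 in the suprabasal range. Thy1 was 23.6 and 127 CPM in the basal range and 8.89 and 38.3 in the suprabasal range. In cells with at least 3 T cell markers, of which Thy1 is one, it was 232 and 306 CPM, so the higher dpc16 value of Thy1 was also present outside those cells. Stfa3 had its larger dpc16 value in the suprabasal range, 132 CPM against 69.0 in the basal range, while in NP it stood at 9.77 and 15.6. Serpinb12, an intracellular serpin of surface epithelia, was chiefly suprabasal, with 72.3 CPM in NP and 187 at dpc16 there against 1.94 and 6.60 in the basal range.

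Of the lower genes outside the granular layer, Ccl27a, Pkib and Ly6a were lower in both ranges. Ccl27a (chromosome 4, 41769467 to 41774247), a chemokine that draws T cells to skin, stood at 3279.9 CPM in NP, 1539.9 at dpc16, 2325 at dpp6 and 2727 at dpp40. In the basal range it was 3981 in NP and 1962 at dpc16, and in the suprabasal range 2122 and 791. Pkib (chromosome 10, 57631981 to 57741112), an inhibitor of protein kinase A, was 115 and 43.3 CPM in the basal range and 195 and 99.5 in the suprabasal range. Ly6a, the surface protein Sca-1, was 164 and 57.3 in the basal range and 97.6 and 22.1 in the suprabasal range. Each gene thus differed in the same direction on both sides of the keratin border, and also in cells with at least 3 T cell markers. There Ccl27a stood at 2505 CPM in NP and 1337 at dpc16, Pkib at 77.2 and 49.9, and Ly6a at 98.7 and 39.2. Those cells also held 2052 and 4316 CPM of Krt14, so they carry keratinocyte RNA. The shared direction therefore does not place the differences in both ranges, and RNA from other cells was not tested.

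**Figure D3:**
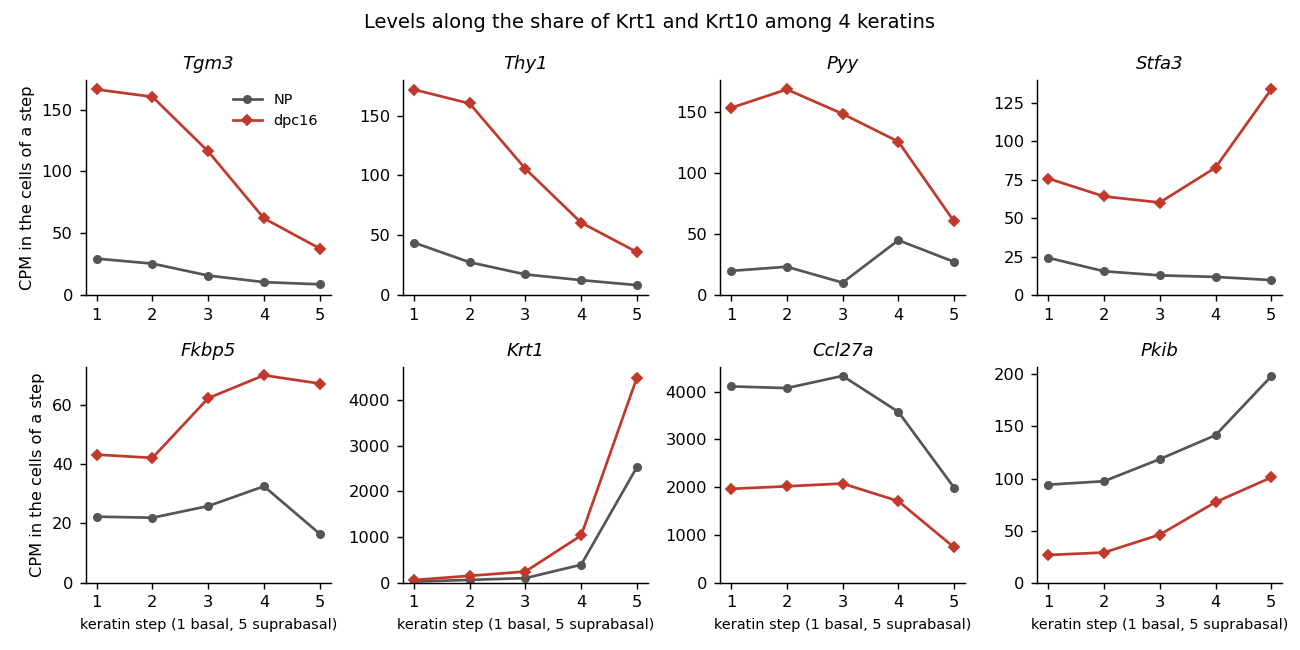
CPM (linear axis from 0) of 8 genes in 5 steps of keratinocytes ordered by the share of Krt1 and Krt10 among Krt1, Krt10, Krt5 and Krt14 UMIs, from the most basal (1) to the most suprabasal (5), in the NP and dpc16 libraries. At dpc16, Tgm3 falls from 166 CPM in step 1 to 37.7 in step 5 and Stfa3 is highest in step 5 (134 CPM), while Ccl27a and Pkib lie below NP in each step.

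Counted by cells, Tgm3 transcripts were found in 3.48% of thinned NP cells and 20.7% of thinned dpc16 cells of the basal range, where the median cell held 4212 and 4004 UMIs. As a background, cells with Langerhans core markers, which should lack keratinocyte transcripts, held Tgm3 in 2.89% of NP cells and 13.4% of dpc16 cells, with median depths of 6881 and 6296 UMIs. Those cells also held 3610 CPM of Krt14 at dpc16, against 5131 over all cells, so they carry much keratinocyte RNA and give a high background. Thy1 was found in 20.7% of dpc16 basal range cells and 17.4% of the Langerhans marker cells, with overlapping intervals. Pyy (11.4% and 10.2%) and Stfa3 (9.96% and 12.3%) were likewise not above that background in the basal range. In the suprabasal range Stfa3 was found in 19.0% of dpc16 cells (17.5% to 20.6%), above the Langerhans value (9.48% to 15.6%). For Thy1 and Pyy the share of cells that make the transcript can therefore not be read from these counts.

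Over all kept cells, the S phase, G2 and mitosis, immediate early and heat shock genes at 10 CPM or more differed by less than 2-fold. Among the 12 S phase genes, 7 had a ratio above 1 and the list median was 0.22 on the log2 scale. Pcna, the DNA polymerase clamp, stood at 19.6 CPM in NP, 28.4 at dpc16, 36.1 at dpp6 and 31.9 at dpp40. It was lowest in NP and not particular to dpc16. Of 17 genes of G2 and mitosis 1 lay above 0 with a median of -0.53. Mki67 stood at 19.7 CPM in NP, 11.3 at dpc16, 19.0 at dpp6 and 17.5 at dpp40. Without the cells that held follicle, sebaceous or granular markers the G2 and mitosis median was -0.83. It was then taken over 22 genes, 2 of them at least 2-fold lower, beside 63 of 6908 genes in that setting. Cells with at least 3 S phase markers made up 4.25% of thinned NP cells and 6.27% of thinned dpc16 cells, and those with G2 and mitosis markers 12.5% and 11.98%. The latter difference turned with the rule: cells with at least 2 G2 and mitosis markers made up 34.3% in NP and 36.995% at dpc16. Immediate early genes, which respond to dissociation as well as to signals, had 13 of 16 members above 0 and a median of 0.36. Fos stood at 1245 CPM in NP, 1813 at dpc16, 1501 at dpp6 and 2181 at dpp40, lowest in NP. Heat shock genes had 10 of 12 above 0 and a median of 0.32. Hspa8 was lowest in NP, at 715 CPM against 1066 at dpc16, 1020 at dpp6 and 1078 at dpp40. Hsp90ab1 was highest at dpc16, with 1479, 1662, 1368 and 1418 CPM in the same order. The part of tissue handling in the immediate early and heat shock lists was not tested.

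**Figure D4:**
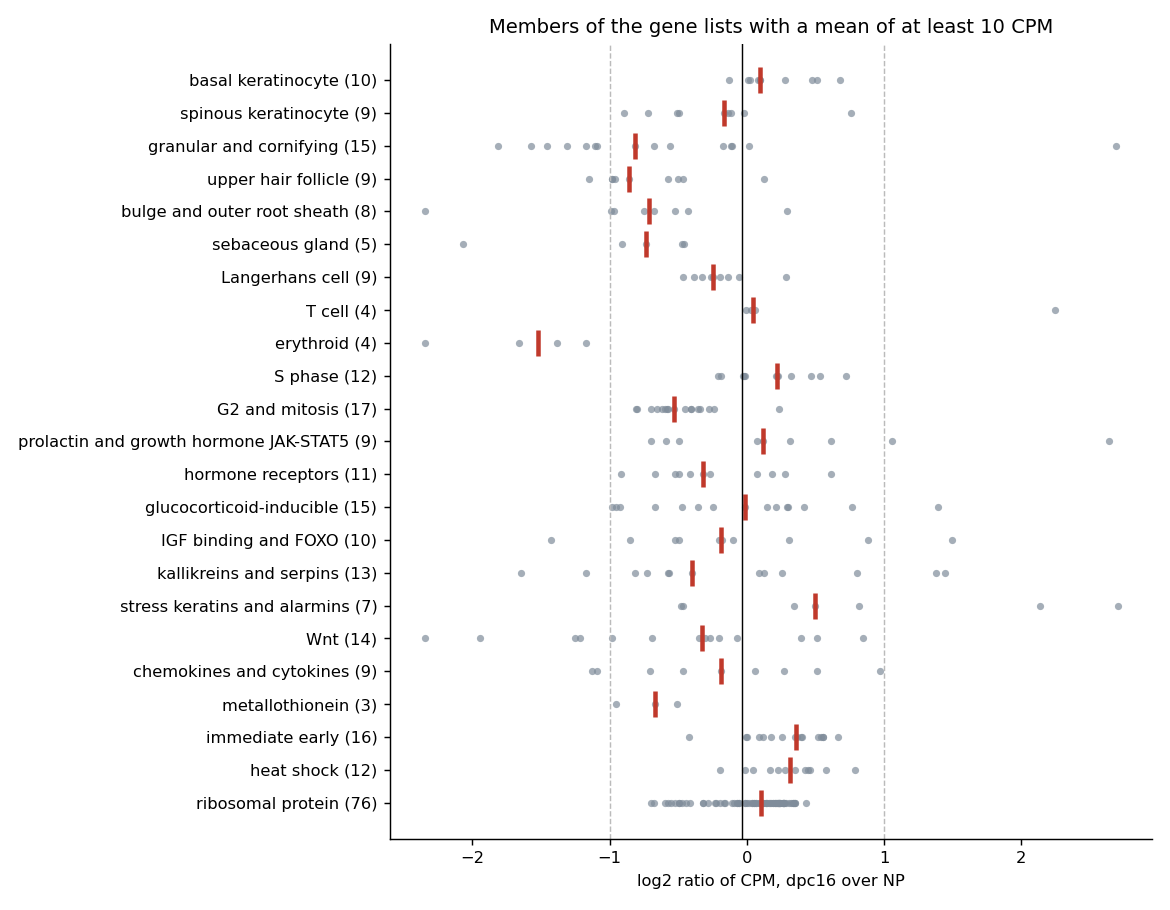
Log2 ratio of CPM, dpc16 over NP, of each member with a mean of at least 10 CPM (grey points, number in brackets), with the list median (red bar), the median of all 7059 genes (black line, -0.04) and 2-fold in either direction (dashed lines). Granular, follicle, sebaceous and erythroid lists lie to the left, while Tgm3, Thy1, Socs2, Stfa1 and Stfa3 stand alone at the right of their lists.

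In the Wnt list 4 of 14 genes were at least 2-fold lower (Lgr5, Lgr6, Dkk3 and Wnt16), against 1.39% of all genes, with a median of -0.32. Lgr5 is also in the bulge list. Without cells with follicle, sebaceous or granular markers, 2 of 12 Wnt genes were at least 2-fold lower. Wnt16 stood at 20.1 CPM in NP and 5.24 at dpc16, and Wnt4 at 115 and 208. Of 9 chemokines and cytokines, Cxcl14, a chemokine of basal keratinocytes, stood at 814 and 1163 CPM and Cxcl12 at 49.0 and 22.4. Of 17 barrier lipid genes 3 were at least 2-fold lower, among them the ceramide synthase Cers4 (51.7 and 18.1 CPM), again against 1.39% of all genes. Without cells with follicle, sebaceous or granular markers it was 0 of 15. The cholesterol synthesis list had a median of -0.01. Mitochondrially encoded genes had a median of -0.17, with mt-Nd3 alone past 2-fold (245 and 97.2 CPM). Tbx3, below the 10 CPM mean, had 173 UMIs in NP and 934 at dpc16, or 4.35 and 12.6 CPM, against 3.86 at dpp6 and 2.59 at dpp40. The reporter EGFP had 131 and 161 UMIs, or 3.29 and 2.17 CPM.

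Replicated values came from sorted interfollicular basal cells (CD49f positive, CD34 negative) of wild type C57BL/6 mice, with 3 bulk libraries each for dpc16 and NP. These differ from the single cells in genotype and in the sort. The bulk fit also held 3 libraries of Tbx3 knockout mice at dpc16, which entered the estimate of spread but not the contrast. With only the 6 libraries compared, 12 genes passed, 9 of them shared with the main fit given below. Of the 37 higher genes 34 had a bulk value, and 30 of these were higher in bulk, with a median log2 change of 0.89. Of 69 lower genes with a bulk value, 56 were lower, with a median of -0.46. Over the 6795 genes with both values the bulk median was -0.01, and 3302 were higher. In bulk 15 of 11497 genes (0.13%) passed an adjusted p of 0.05 by limma with Benjamini-Hochberg adjustment, 12 higher and 3 lower, and 6 of the 37 higher and 1 of the 98 lower single-cell genes were among them.

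**Figure D5:**
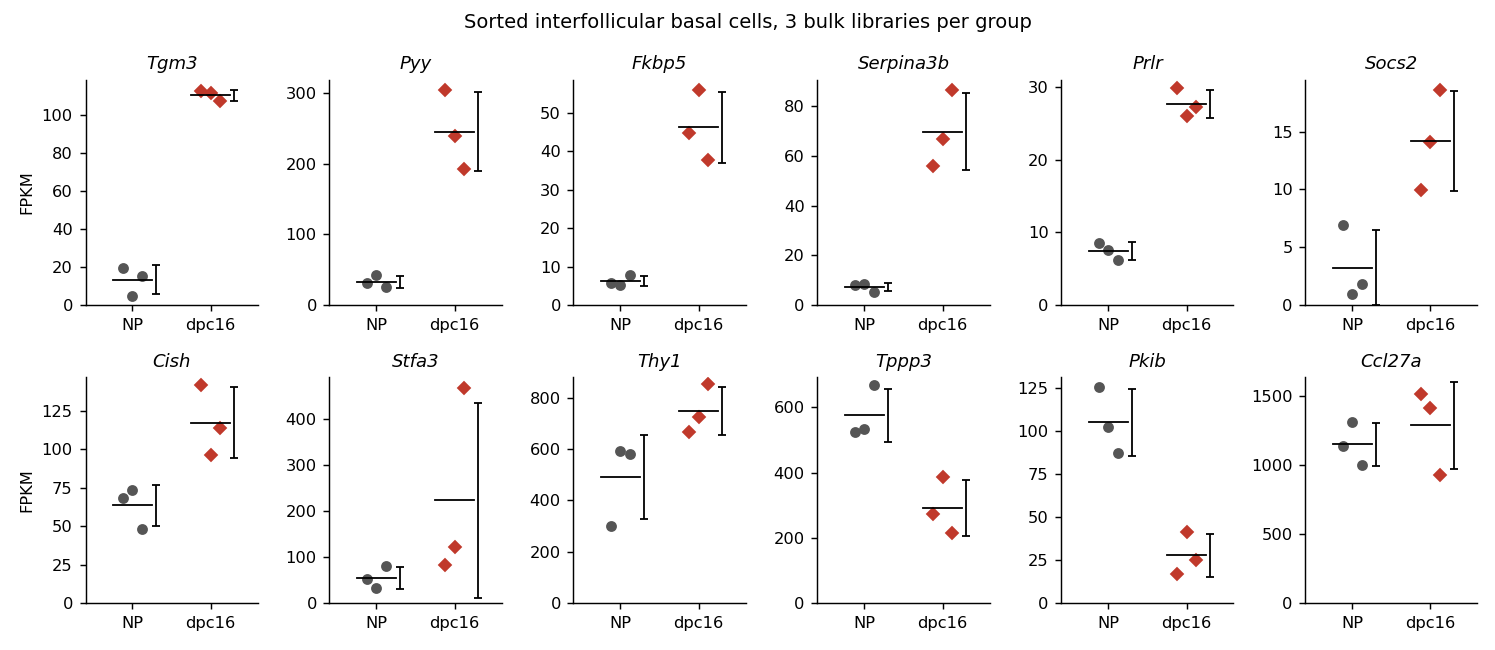
FPKM (linear axis from 0) of 12 genes in 3 NP and 3 dpc16 bulk libraries of sorted basal cells, with the group mean (line) and SD (bar). The groups do not overlap for the genes shown other than Ccl27a, and Tppp3 and Pkib are the ones lower at dpc16.

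Pyy lay at 31.0, 42.7 and 26.3 FPKM in the NP libraries and at 305, 239 and 193 in the dpc16 libraries. The groups did not overlap, and Pyy rose by a log2 change of 2.85 ± 0.26 (SE; adjusted p = 0.00242). Fkbp5 lay at 5.76, 5.28 and 7.73 FPKM in NP and 44.7, 56.0 and 37.8 at dpc16, and rose by 2.70 ± 0.24 (adjusted p = 0.00242). Prlr lay at 8.55, 7.57 and 6.21 and at 29.8, 26.0 and 27.3, and rose by 1.77 ± 0.18 (adjusted p = 0.00411), beside a single-cell log2 ratio of 0.61. Each of these calls held when any 1 bulk library was left out, and each missed the threshold with no filter on low FPKM, which adds genes to the adjustment (adjusted p = 0.0708, 0.0620 and 0.0606 in that order).

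Tgm3 lay at 19.8, 4.84 and 15.4 FPKM in NP and at 112, 111 and 107 at dpc16, with no overlap, and rose by 3.15 ± 0.42 (adjusted p = 0.0252). The Tgm3 call was lost without the third NP library (adjusted p = 0.0791) and without the first, the second or the third dpc16 library (0.117, 0.116 and 0.0889). Serpina3b, a serine protease inhibitor with 12.2 and 33.1 CPM in the single cells, rose by 3.07 ± 0.34 (adjusted p = 0.00683), a call lost without the third NP library (0.0721). Pkib fell by 1.96 on the log2 scale, from 105 ± 19.3 to 27.6 ± 12.3 FPKM (SD, n = 3 each; limma adjusted p = 0.0347). The Pkib call was lost in 8 of 9 omissions of 1 library, all but that of the second dpc16 library, with adjusted p up to 0.14, and with the libraries blocked by column number (0.108). With no filter on low FPKM the adjusted p of Tgm3, Serpina3b and Pkib were 0.223, 0.131 and 0.226, and with only the 6 libraries compared those of Tgm3 and Pkib were 0.0630 and 0.0946.

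Several leading single-cell genes did not pass in bulk. Socs2 lay at 6.94, 0.955 and 1.80 FPKM in NP and at 9.95, 14.1 and 18.6 at dpc16, without overlap (adjusted p = 0.146). Stfa3 lay at 52.3, 32.6 and 80.2 and at 82.4, 121 and 467, with 1 dpc16 library far above the others (adjusted p = 0.504). Thy1 lay at 301, 594 and 580 and at 669, 727 and 853, a log2 change of 0.67 ± 0.55 (adjusted p = 0.783), beside 2.25 in the single cells. Tppp3 went against the single cells in every library, with 524, 533 and 669 FPKM in NP and 273, 385 and 215 at dpc16 (log2 change -1.01 ± 0.30, adjusted p = 0.304). Ccl27a overlapped between the groups, with a log2 change of 0.14 ± 0.28 (adjusted p = 0.931). Lor was low in the sorted cells, at 12.3 ± 5.97 FPKM in NP and 10.3 ± 3.42 at dpc16 (SD, n = 3 each).

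Angptl4, a regulator of lipoprotein lipase, differed in direction between the measurements. In bulk it lay at 3.88, 6.43 and 5.69 FPKM in NP and at 31.3, 44.8 and 29.0 at dpc16, and rose by 2.51 ± 0.23 (adjusted p = 0.00242, or 0.0620 with no filter on low FPKM). In whole epidermis it stood at 13.7 CPM in NP, 7.22 at dpc16, 8.80 at dpp6 and 11.0 at dpp40. Without cells that held follicle, sebaceous or granular markers it was still lower at dpc16, at 8.29 and 6.16 CPM.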

How the data were processed

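The authors deposited UMI counts per gene and barcode for 4 single-cell libraries (Chromium 3′ version 2 chemistry, per the labels' protocols) and FPKM for 9 bulk libraries, aligned to mm10. The submitters' processing notes name Cell Ranger 2.2.0, cutadapt 1.14, TopHat2, Cufflinks 2.2.1 and Cuffdiff. The bulk columns headed WT were taken as dpc16 by exclusion, and bulk libraries are numbered by column order. The depth behind the FPKM is unknown. Whether the bulk libraries of a group are separate mice is not stated in the labels, and the p-values reflect library-to-library spread that could be technical.

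UMI counts of kept cells were summed per library and scaled to CPM, with exact 95% Poisson or binomial intervals. Intervals and floors (3 counts) cover counting error only. With 1 library per state no test was run. Genes with a mean of at least 10 CPM over both libraries were compared. No doublets were removed; leaving out the 5% of cells with the most UMIs was an alternative. Bulk log2(FPKM + 1) was fitted with limma 3.58.1 in R 4.3.3 (3 groups, trend, two-sided) for the 11497 genes averaging 1 FPKM or more. This scale understates changes of low genes. The groups were wild type dpc16, wild type NP and Tbx3 knockout dpc16. The knockout libraries entered the spread and the FPKM minimum but not the contrast. Positions are from GENCODE M21 (GRCm38). Symbols on more than 1 gene ID (58) were given to the ID with the most UMIs.

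Genes were named by rule: Tbx3 and EGFP; the 15 largest and 15 smallest ratios at a mean of 50 CPM or more; from each of 45 lists with enough members the 2 most abundant and the 2 with the largest ratio; and genes called in bulk. The text describes a part of them, and some are not reported here. The gene set, the lists and the rule were chosen with earlier results of these data known. The fold counting and fitting steps were tested on simulated data. Thinning was checked on real barcodes of the NP library, only for an equal UMI total per cell. For the comparison of dpc16 with NP, 200 genes changed 3-fold were simulated from genes of at least 10 CPM; 181 of them were recovered among 7153 genes compared, and the other 19 fell under the 10 CPM minimum. With changed genes of at least 30 CPM, tried after that, 200 of 200 were recovered among 7162. Both simulated libraries were drawn from the NP profile with counting error only. The recovery therefore says nothing about differences between real libraries.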

Additional observations from a re-analysis of the deposited data

How the results depend on the processing

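The 37 higher genes stayed above 0 under each of 8 single-cell alternatives, and of the 98 lower genes 95 stayed below 0 without cells with follicle, sebaceous or granular markers and 98 under the others. Of 1144 recomputed ratios of the 143 genes named by rule, 483 moved by more than counting error. With a mean of 1 CPM as the minimum the counts were 106 higher and 422 lower, and without cells with follicle, sebaceous or granular markers (chosen after seeing the data) 63 were lower. Of 280 recomputed list medians (35 lists, log2 ratio) 23 moved by 0.2 or more. Without follicle, sebaceous or granular marker cells the medians were -0.50 (upper follicle), -0.18 (bulge), -0.83 (G2 and mitosis), 0.32 (late cornified envelope and SPRR, which turned from lower to higher), 0.31 (T cell), -2.39 (erythroid), -0.89 (metallothionein), 0.063 (chemokines and cytokines), 0.055 (YAP targets), -0.19 (kallikreins and serpins) and 0.0072 (angiogenic); the chemokine, YAP and angiogenic medians also turned from below to above 0. Without the 5% of cells with the most UMIs they were 0.36 (late cornified envelope and SPRR, again turned) and -0.63 (angiogenic). With the 1 CPM minimum they were 0.17 (stress keratins), -0.53 (Wnt) and -0.58 (angiogenic). With each cell weighted the same they were -0.94 (erythroid) and -0.68 (angiogenic), and with all deposited barcodes -1.74 (erythroid). Under stricter cell limits (1000 genes, 5% mitochondrial) they were -0.35 (sebaceous), -1.06 (erythroid) and -0.071 (angiogenic). Without ribosomal and mitochondrial genes in the total the angiogenic median was -0.55. Differences between dpc16 and NP in shares of cells, in percentage points, depended on the rule. Without thinning they were -2.12 (Langerhans), -22.5 (upper follicle) and -4.08 (granular). With at least 2 markers they were -1.51 (Langerhans), 0.50 (T cell), 2.69 (G2 and mitosis, against a lower share with 3 markers) and -3.76 (granular). Thinned to 1000 UMIs the upper follicle difference was -11.6, and by Krt10 above Krt14 alone the suprabasal difference was -6.22. The causes were not tested. In bulk 2 genes passed with no filter, where more genes were tested, and leaving out 1 library gave 5 to 15 (5 without the third NP library, 6 without the first dpc16 library, 8 without the second NP or the first Tbx3 knockout library, 9 without the third dpc16 library). The replicate block by column number gave 10; the column numbers do not pair the libraries (correlations of deviations -0.07, -0.07 and -0.21).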

Other observations

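Stress keratins and alarmins had the highest list median among the lists with at least 5 members at 10 CPM or more, 0.49, with 5 of 7 above 0. Of these only Stfa1 and Stfa3 passed 2-fold, as did 0.524% of all genes, while Krt16, Il33 and Krt6a were higher by less. The injury keratin Krt16, named after its values were seen, stood at 30.8 CPM in NP, 54.3 at dpc16, 56.7 at dpp6 and 71.5 at dpp40, lowest in NP. Krt17, a keratin of the follicle and of wounds, stood at 1927, 1397, 2163 and 1914 CPM in the same order. Glycolysis genes lay above 0 in 12 of 17 cases with a median of 0.17. Pgam1, a glycolytic enzyme, stood at 89.9 CPM in NP, 147 at dpc16, 141 at dpp6 and 129 at dpp40. Antigen presentation genes of class I had a median of -0.17, and B2m, their shared light chain, stood at 2786 and 2732 CPM.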
